A study of Mus musculus with 6 samples.

Results

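Promoters at which chromatin was found open in D-EPSCs and in neither of the other cell states were described here. D-EPSCs are extended pluripotent stem cells (EPSCs) held in the medium of the Deng laboratory, L-EPSCs are EPSCs held in that of the Liu laboratory, and both were derived from J1 mouse embryonic stem cells (ESCs) of a 129 strain, which were the third state. The assay was ATAC-seq, which uses the transposase Tn5 to cut accessible DNA, and the deposited data were 1 list of peaks per state, each from 2 technical replicates. ESCs were kept in serum with LIF (1000 units per ml), the GSK3 inhibitor CHIR99021 (3 µM) and the MEK inhibitor PD0325901 (1 µM). D-EPSCs had N2B27 medium with knockout serum replacement, LIF (1000 units per ml), CHIR99021 (3 µM), dimethindene maleate (2 µM), an antihistamine, and minocycline (2 µM), an antibiotic of the tetracycline class. L-EPSCs had DMEM/F12 medium, also with knockout serum replacement, and LIF (1000 units per ml), CHIR99021 (3 µM) and PD0325901 (1 µM). Added to these were the Src-family inhibitor A-419259 (0.3 µM), the tankyrase inhibitor XAV939 (5 µM), JNK inhibitor VIII (4 µM) and the p38 inhibitor SB203580 (10 µM). LIF and CHIR99021 were therefore shared by all 3 states, and PD0325901 was in the ESC and L-EPSC media and not in that of D-EPSCs. All 3 states descend from a single line, and medium, derivation and library cannot be told apart.

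The members were selected on the peak lists themselves. The 28965 ESC, 50225 D-EPSC and 46601 L-EPSC peaks on chromosomes 1 to 19 and X were pooled, peaks sharing at least 1 bp were merged, and a merged region was a member when it held a D-EPSC peak only and its centre was no more than 1 kb away from an annotated protein-coding start. Of 65518 merged regions, 14633 held a D-EPSC peak only, and 1263 of those were members. They were 8.49% of the 14876 promoter regions, beside 513 promoters found in L-EPSCs only, 2309 found in both EPSC lists and not in ESCs, 10409 found in all 3 lists and 145 found in ESCs only. These counts follow from the rule and from the length of each list, and none was tested. With 1 list per state, no value has a replicate spread, so every interval below covers the counting of regions or genes only, and regions of the same gene are not independent.

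A promoter is the stretch around a transcription start at which general factors and RNA polymerase assemble. In mammals many promoters lie in CpG islands, stretches rich in G and C that have kept their CpG dinucleotides, and such promoters are open in most cell types. Others are poor in CpG and serve genes used in few tissues. In pluripotent cells, CpG-rich promoters of developmental regulators are typically marked by Polycomb complexes and little transcribed, whereas housekeeping promoters are open throughout.

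To show the sequence at the starts of these genes, 150 bases directly before the start are printed for 2 wide CpG-dense members and 1 wide member that is not, in which these bases lay within the peak and outside annotated exons, with each CG in capitals. CpG-dense means a G and C content of at least 50% and a CpG observed/expected ratio of at least 0.6 in the 400 bp around the midpoint of the region, where the ratio sets the CpGs found against those that the C and G content gives. All sequences are on mm9 (NCBIM37), 5′ to 3′ on the strand of the gene. The stretch before Lonrf3, a RING finger gene, is chrX:33868198-33868347 (plus strand) and that before Sox3, a transcription factor of neural progenitors, is chrX:58146606-58146755 (minus strand). That before Ppp2r5c, a regulatory subunit of protein phosphatase PP2A, is chr12:111723799-111723948 (plus strand).
Lonrf3: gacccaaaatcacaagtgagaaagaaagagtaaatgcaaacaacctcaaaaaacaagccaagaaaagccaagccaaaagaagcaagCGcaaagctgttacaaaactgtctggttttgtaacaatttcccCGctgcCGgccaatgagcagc
Sox3: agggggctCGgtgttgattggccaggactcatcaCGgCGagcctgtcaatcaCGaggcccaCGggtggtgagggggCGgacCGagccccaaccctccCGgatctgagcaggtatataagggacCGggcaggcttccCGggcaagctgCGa
Ppp2r5c: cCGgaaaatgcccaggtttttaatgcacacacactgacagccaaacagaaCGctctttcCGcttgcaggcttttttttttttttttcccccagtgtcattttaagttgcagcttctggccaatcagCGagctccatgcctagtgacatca

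The stretches held 3, 11 and 4 CGs in that order. That of Sox3 had 66.0% G and C, that of Lonrf3 43.3% and that of Ppp2r5c 46.0%. For Lonrf3 and Sox3 these bases lie outside the window that gave the CpG-dense label, since the midpoint of the peak was 215 bp after the start of Lonrf3 and 525 bp before that of Sox3.

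Matches to 15 short motifs were also searched, as exact letters on both strands. For the motif classes that the study discusses, the widest members with a match before the start and outside annotated exons are shown with up to 40 bases on either side and the match in capitals. The NRF1 letters (GCGCATGCG) lay 18 bp before a start of Plxna1, a semaphorin receptor, at chr6:89312608-89312673, and 189 bp before that of Taf7l, a germ cell form of a TFIID subunit, at chrX:131009681-131009769. The left element of REST (TTCAGCACC), the repressor of neuronal genes, ended directly before the start of a Schip1 transcript at chr3:67868815-67868863 (plus strand), and its right element (GGACAGCGC) lay 651 bp before that of Mapk11, a p38 kinase, at chr15:88980647-88980735. The letters used for Zfp281 (CCCTCCCCC), a zinc finger factor of pluripotent cells, lay 928 bp before Sox3 at chrX:58147493-58147581, and those of the TCF/LEF factors of Wnt signalling (CTTTGATC) lay 211 bp before Opn1sw, a cone opsin, at chr6:29338639-29338726. All but Schip1 are on the minus strand. These matches were sought within the peak, and those of Plxna1, Mapk11, Sox3 and Opn1sw lie outside the 400 bp around the midpoint in which the shares given further on were counted.
Plxna1: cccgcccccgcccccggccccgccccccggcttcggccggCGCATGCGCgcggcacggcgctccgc
Taf7l: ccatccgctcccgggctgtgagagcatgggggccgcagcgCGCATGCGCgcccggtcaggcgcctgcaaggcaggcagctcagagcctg
Schip1: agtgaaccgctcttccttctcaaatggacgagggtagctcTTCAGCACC
Mapk11: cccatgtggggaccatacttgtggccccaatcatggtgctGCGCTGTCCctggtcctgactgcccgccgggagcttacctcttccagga
Sox3, Zfp281 letters: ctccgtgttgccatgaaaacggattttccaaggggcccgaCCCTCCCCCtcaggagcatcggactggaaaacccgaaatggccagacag
Opn1sw: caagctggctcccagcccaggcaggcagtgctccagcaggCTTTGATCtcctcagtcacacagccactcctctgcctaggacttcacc

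The D-EPSC-only promoters were mostly narrow peaks. Their median width was 261 bp (95% interval 248 to 275) and the middle of the distribution ran from 172 to 430 bp. The narrowest was 117 bp and the widest 1582 bp, 428 were under 200 bp, 227 were at least 500 bp and 19 at least 1000 bp. Each held a single D-EPSC peak. Median widths were 214 bp for L-EPSC-only promoters, 620 bp for those of both EPSC lists and 886 bp for those of all 3 lists. Width comes from the same peak calls as the choice of members and was not tested.

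They lay at 1215 of 22202 coding genes (5.47%). Of these genes 1150 had 1 member, 58 had 2 and 7 had 3 or more, while 25 members lay near the starts of 2 genes. Zfp385a, a zinc finger gene, had 4, of 150, 163, 879 and 194 bp, and Trp73, the p53 relative p73, had 3, of 1067, 236 and 124 bp. The neural gene Sox3 had 1 member of 1108 bp before its start and 1 of 246 bp over its coding exon, and Kif1a, a kinesin motor of axonal transport, had 2, of 826 and 370 bp. Plekhg5 and Frmd4b had 2 each, of 479 and 988 bp and of 545 and 640 bp.

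A peak found in a single list can still lie beside a peak of another list. For 136 members (10.8%, 95% Wilson interval 9.18 to 12.6) a peak of ESCs or L-EPSCs lay within 500 bp, and for 289 (22.9%, 20.6 to 25.3) within 1 kb. The window of 1 kb on either side of the nearest start held an ESC peak for 141 members (11.2%), an L-EPSC peak for 256 (20.3%) and either for 275 (21.8%). The median distance was 12769 bp to the nearest ESC peak and 5987 bp to the nearest L-EPSC peak. Counting every annotated start of their genes, 537 members (42.5%) belonged to a gene with a peak of another list at some start, and 726 (57.5%) to genes with none. The latter were wider (median 297 bp, 273 to 321, against 226 bp, 212 to 244) and lay more often at the most upstream start of the gene, to within 100 bp (588 of 726, 81.0%, against 227 of 537, 42.3%). By the rule itself no member region held a peak of another list, and at 57.5% of members this was also so at every start of the gene. A missing peak is not a measure of the signal there.

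The 12 widest members, which the rule for named genes takes first, showed both kinds. Igdcc4, an immunoglobulin-domain receptor, had the widest at chr9:64949098-64950679 (1582 bp), with its midpoint in an intron 547 bp after the start and the nearest peaks of the other lists 6694 bp (ESC) and 6528 bp (L-EPSC) away. Gal3st1, which makes the myelin lipid sulfatide, had a peak of 1235 bp, and Kcnmb2, a subunit of BK potassium channels, had 1 of 1229 bp with no peak of ESCs within 163005 bp or of L-EPSCs within 163164 bp. Stc1, which encodes the hormone stanniocalcin, had a peak of 1191 bp, 115243 bp from an ESC peak and 144775 bp from an L-EPSC peak. The others were Rnf10 (1166 bp), Gm5868 (1162 bp), Sema6d (1118 bp), Lonrf3 (1115 bp), Podn (1111 bp), Sox3 (1108 bp), Pax2 (1086 bp) and 2610528J11Rik (1079 bp). Of these 12, all but Sema6d belonged to genes without a peak of another list at any start, and 6 were CpG-dense.

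**Figure D1:**
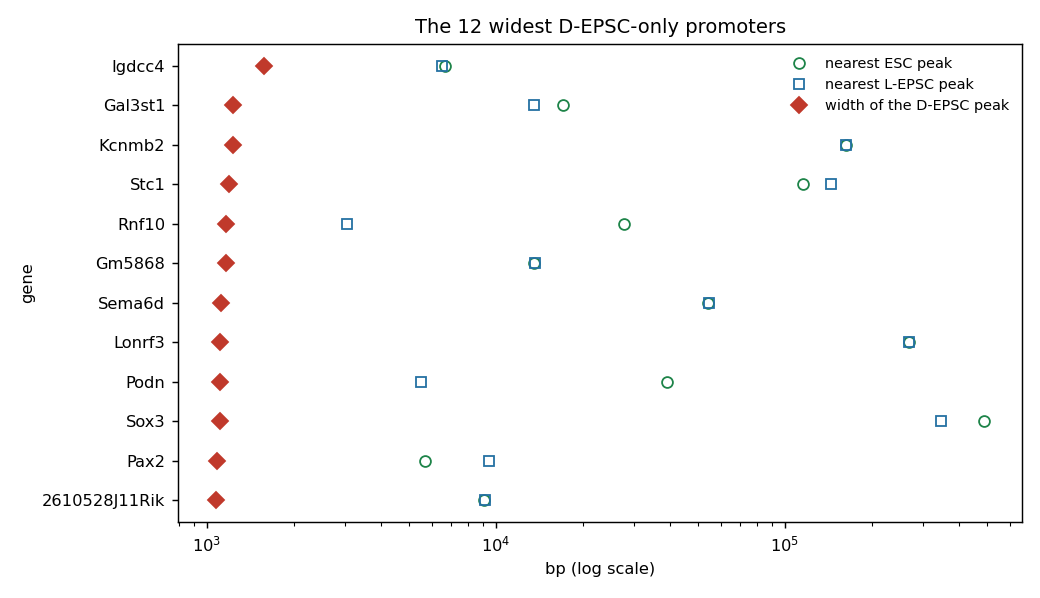
Width of the D-EPSC peak (red diamonds) and distance to the nearest ESC peak (green circles) and L-EPSC peak (blue squares) for the 12 widest D-EPSC-only promoters, in bp on a log scale. Each peak is between 1079 and 1582 bp wide, and the nearest peak of another list is between 3044 bp (Rnf10, L-EPSC) and 345270 bp (Sox3, L-EPSC) away.

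The members farthest from any other peak were at Aff2, a gene of the AF4/FMR2 family (597934 bp to the nearest L-EPSC peak and 619848 bp to the nearest ESC peak), Ldb2, a LIM-domain binding factor (527702 and 558888 bp), 1700112E06Rik (581574 and 518319 bp), Irs4, an insulin receptor substrate (502301 and 664429 bp), and Pou3f4, a POU factor of the inner ear and brain (480531 and 566117 bp). At the other edge of the rule, the members nearest to the limit of 1 kb were Tmem220 and 2610021A01Rik (997 bp each) and 1700048O20Rik (996 bp), and the regions just outside were at Shank1 (1003 bp, width 1298 bp), C1qc (1005 bp) and Hba-x (1006 bp).

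Members were centred on transcription starts, with a wider scatter than shared promoters. The median distance of the midpoint was 177 bp (160 to 193), against 285 bp (244 to 327) for L-EPSC-only promoters, 128 bp (120 to 136) for those of both EPSC lists and 105 bp (103 to 109) for those of all 3. Between 500 bp and 1 kb from the start lay 130 members before it (10.3%) and 186 after it (14.7%), against 2.11% and 2.63% of the promoters of all 3 lists. The midpoint lay before the start in 45.9% of members and in 39.7% of promoters of all 3 lists (difference 6.20 percentage points, 95% Newcombe interval 3.31 to 9.11). Against L-EPSC-only promoters (44.1%) no difference was detectable (1.87 points, −3.25 to 6.92).

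Members lay at the most upstream start of their gene in 64.5% of cases, above the 56.9% of L-EPSC-only promoters (difference 7.61 points, 2.61 to 12.6) and below the 78.9% of promoters of all 3 lists (difference −14.4 points, −17.2 to −11.7). Only 22 members (1.74%) lay between coding genes starting on opposite strands, against 10.3% of promoters of all 3 lists (difference −8.52 points, −9.36 to −7.47). For L-EPSC-only promoters this share was 2.14%, and no difference was detectable (−0.402 points, −2.16 to 0.888). By annotation, the midpoint was in a coding exon for 167 members, in another exon for 326, in an intron of a coding gene for 436 and outside coding genes and exons for 334. Introns held 34.5% of member midpoints (31.9 to 37.2) against 43.7% of those of L-EPSC-only promoters (39.4 to 48.0) and 19.0% of those of promoters of all 3 lists (18.3 to 19.8).

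Against promoters of all 3 lists, the largest difference in share among the sequence measures was in CpG density. Among the members 422 were CpG-dense (33.4%, 30.9 to 36.1), against 82.4% of promoters of all 3 lists (difference −49.0 points, −51.6 to −46.2) and 66.5% of those of both EPSC lists (−33.1 points, −36.2 to −29.8). Of 45939 annotated coding starts, 47.7% were CpG-dense. Against L-EPSC-only promoters (26.1%), members were CpG-dense more often by 7.29 points (2.58 to 11.8). With equal numbers of the widest peaks of each list this last difference was 5.92 points, with an interval (−0.000585 to 11.7) that reached 0. The median CpG ratio of members was 0.471 (0.453 to 0.483), between 0.378 (0.337 to 0.406) for L-EPSC-only promoters and 0.822 (0.817 to 0.826) for those of all 3 lists.

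**Figure D2:**
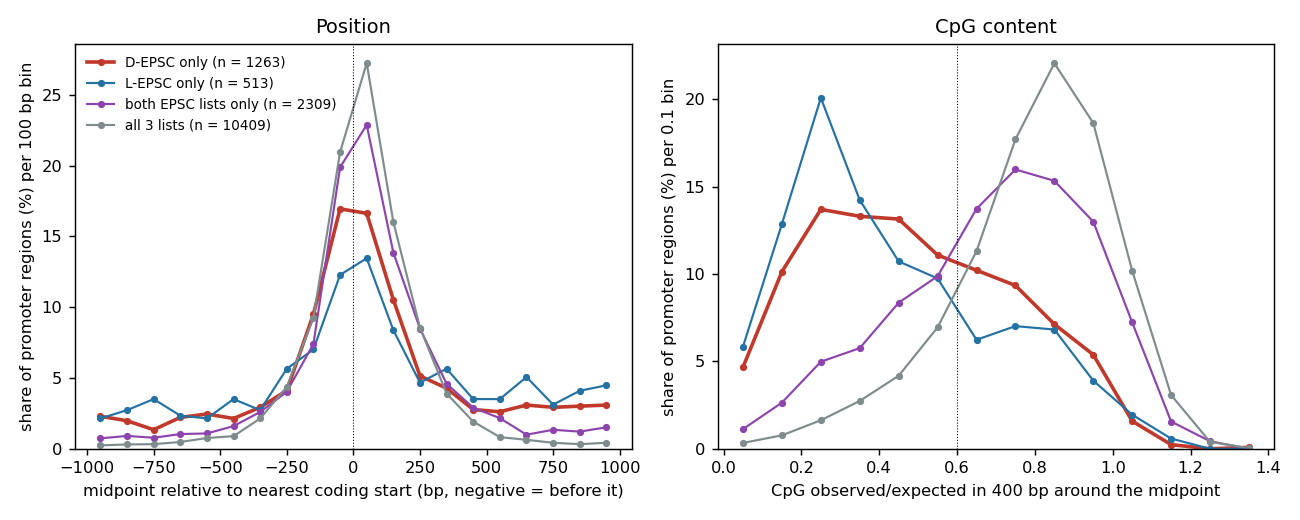
Left, position of the region midpoint relative to the nearest coding start in 100 bp bins. Right, CpG observed/expected in 400 bp around the midpoint in bins of 0.1, with the limit of 0.6 dotted. Lines are D-EPSC-only (red, n = 1263), L-EPSC-only (blue, n = 513), both EPSC lists (purple, n = 2309) and all 3 lists (grey, n = 10409). D-EPSC-only promoters have a lower peak at the start and a median CpG ratio of 0.471, against 0.822 for all 3 lists.

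Within the members, described without a test, the CpG-dense ones were wider (median 320 bp, 295 to 348) than the others (236 bp, 221 to 249) and lay more often at the most upstream start (72.0% against 60.8%). Their midpoints lay before the start in 38.6% of cases, against 49.6% of the other members. Of the CpG-dense members 61.4%, and of the others 55.5%, belonged to genes without a peak of another list at any start.

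The share of genes reached was then set against the genes that could be. Of 8480 coding genes with neither an ESC nor an L-EPSC peak within 1 kb of any start, 742 had a D-EPSC peak (8.75%). In the mirrored count, 208 of 7946 genes with neither an ESC nor a D-EPSC peak had an L-EPSC peak (2.62%). The D-EPSC share differed with sequence. Where a start of the gene was CpG-dense, 285 of 634 had a D-EPSC peak (45.0%, 41.1 to 48.8), and where none was, 457 of 7846 (5.82%, 5.33 to 6.36). The L-EPSC shares were 51 of 400 (12.8%, 9.83 to 16.4) and 157 of 7546 (2.08%, 1.78 to 2.43). These shares rest on the same calls that chose the members and, for both EPSC states, on the same ESC list, so they were not tested against each other. With equal numbers of the widest peaks they were 38.7% for D-EPSCs and 17.8% for L-EPSCs at CpG-dense starts.

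By gene family, D-EPSC-only promoters lay at a larger share of developmental regulators than of all genes, and at few receptors of smell and taste. The lists were defined by gene symbol, and each share stands beside the 5.47% of all coding genes. The lower end of the interval was above 5.47% for 7 of 18 family lists, which were signalling ligands and receptors, homeobox genes, other developmental transcription factors, matrix and adhesion genes, histones, neuronal genes and solute carriers. These intervals were not adjusted for the number of lists, and genes that share a peak were counted separately. L-EPSC-only promoters, found at 2.32% of all coding genes, also lay at larger shares of several of these lists, with 6.98% of signalling genes, 18 of 225 homeobox genes, 3.85% of other developmental factors, 4.41% of matrix and adhesion genes, 4.48% of histones, 4.44% of neuronal genes and 2.72% of solute carriers. Whether the 2 classes of promoter differ in these lists was not tested.

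Of 129 signalling ligands and receptors of the Wnt, FGF, TGF-beta, Notch and Hedgehog pathways, 23 had a member (17.8%, 12.2 to 25.3). By a split made after the values were seen, these included 6 of 19 Wnt ligands (Wnt1, Wnt2b, Wnt3a, Wnt5a, Wnt6 and Wnt7a), 7 of 22 FGF ligands (Fgf1, Fgf2, Fgf8, Fgf9, Fgf13, Fgf14 and Fgf16) and 3 of 5 Notch ligands (Dll3, Dll4 and Jag2). The widest was at Dkk2, a secreted Wnt antagonist (864 bp, 1037 bp from an L-EPSC peak and 121477 bp from an ESC peak). Next came Dll4, a Notch ligand of vessels (700 bp, 361 bp before its start, 11739 bp from an ESC peak), Bmp6 (482 bp) and Fgf9 (450 bp). For 10 of the 129 genes, beside 742 of all 22202, a D-EPSC peak was the sole peak at any start, as at Dll4, Wnt1, Wnt5a and Lefty1, whereas Dkk2, Fgf9 and Wnt3a also had an L-EPSC peak at a start.

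Homeobox genes, which set body axes and cell identity, had members at 35 of 225 (15.6%, 11.4 to 20.9). Pax2, a regulator of kidney and eye, had the widest at chr19:44830846-44831931 (1086 bp, CpG ratio 0.803). Lbx1 (704 bp, 618 bp from an L-EPSC peak) and Pou3f4 (588 bp) were also among the wide ones. By a split made after the values were seen, members lay at 3 of 9 Pax genes (Pax2, Pax5 and Pax8), each with no other list at a start, at 3 of 6 Dlx genes (Dlx4, Dlx5 and Dlx6) and at 7 of 39 Hox cluster genes (Hoxa4, Hoxa10, Hoxb1, Hoxb7, Hoxb8, Hoxc5 and Hoxc9), where Hoxb7 and Hoxb8 share a member of 117 bp. Dlx6, Hoxa4 and Hoxb8 also had an L-EPSC peak at a start. For 21 homeobox genes the D-EPSC peak was the sole peak, and 65 had no peak in any list, beside 742 and 7738 of all 22202 coding genes.

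Other developmental transcription factors had members at 30 of 208 (14.4%, 10.3 to 19.8). Sox3 led with 1108 bp, then Hes5, a Notch target of neural progenitors (1062 bp, 2376 bp from an ESC peak and 2273 bp from an L-EPSC peak), Twist2, a mesenchymal bHLH factor (680 bp, 484 bp from an ESC peak), and Tbx4, a factor of the hindlimb (621 bp). Among myogenic and neurogenic factors, members lay at Myog (253 bp), Neurog3 (487 bp) and Myod1 (203 bp). At Myog and Neurog3 no other list had a peak, whereas Myod1 had peaks of all 3 lists among its start windows.

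Neuronal and synaptic genes had members at 44 of 360 (12.2%, 9.23 to 16.0). They included 13 of 94 potassium channel genes and 7 of 23 TRP channels, both counted after the values were seen. Kcnmb2 was the widest, and wide members also lay at Grik3, a kainate receptor (784 bp), and Kcnd3, a transient potassium channel (710 bp), the last with peaks of both other lists within 1 kb (810 bp and 607 bp). Axon guidance genes had members at 7 of 71 (9.86%, 4.86 to 19.0), an interval that holds the 5.47% of all genes but lay above the share of all genes in 2 alternatives, and L-EPSC-only promoters at 6 (8.45%), with Sema6d, Plxna1 and Sema4g the widest (1118, 773 and 715 bp). The peak at Plxna1 lay 30 bp from an L-EPSC peak.

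Solute carriers, which move metabolites and ions across membranes, had members at 37 of 368 (10.1%, 7.38 to 13.6). Slc37a1 (877 bp) lay 164 bp from an ESC peak, whereas Slc1a3, the glial glutamate transporter (830 bp), lay 11618 bp from the nearest, and Slc9a7 and Slc44a5 had peaks of 633 and 628 bp. Histone genes had members at 9 of 67 (13.4%, 7.23 to 23.6), led by Hist1h4k (839 bp) and by the testis pair Hist1h2aa and Hist1h2ba, which share a peak of 645 bp. Some histone copies are near-identical, and how reads shared by copies were placed was not tested.

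Matrix and adhesion genes had members at 19 of 136 (14.0%, 9.13 to 20.8). The widest were at Cldn11, a tight junction protein (746 bp), Cdh13, a cadherin (628 bp), Col1a2, a chain of type I collagen (555 bp, 9 bp before the start), and Lamb1, a laminin chain (546 bp). Per the study's methods both EPSC cultures were kept without feeders for several passages before ATAC-seq. Of 16 markers of embryonic fibroblasts, the cells used as feeders for such cultures, 10 had a D-EPSC peak at a start (62.5%, beside 63.6% of all coding genes), 6 an L-EPSC peak (37.5%, beside 61.0%) and 5 an ESC peak (31.2%, beside 51.7%). Members lay at 3 of the 16, Col1a2, Twist2 and Pdgfrb (18.8%, 6.59 to 43.0, beside 5.47%), and L-EPSC-only promoters at 0. Col3a1, Dcn, Lum, Postn, Prrx1 and Fap had no peak in any list. The part of such cells in these members was not tested. All 12 pluripotency markers had a peak in both EPSC lists and 9 in ESCs, where Nanog, Esrrb and Tdgf1 had none, and none was a member. Of 7 primitive endoderm markers Foxa2 had a member (528 bp), and of 8 trophoblast markers none had.

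Germline genes had members at 6 of 61 (9.84%, 4.59 to 19.8) and cytokines, chemokines and their receptors at 14 of 211 (6.64%, 3.99 to 10.8), both with intervals that hold 5.47%. Hormad1 and Mael, of meiosis and of transposon silencing, had peaks of 797 and 361 bp, and Tnfrsf1a and Cxcl12, a TNF receptor and a chemokine, had peaks of 855 and 832 bp. At 12 of these 14 cytokine genes, all but Cxcr4 and Il11ra1, no other list had a peak at a start, beside 699 of all 1215 member genes, and the list also holds Il1rapl1, a synaptic relative of interleukin receptors. Clustered protocadherins had 2 of 24.

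The lists with the lowest shares differed in how many of their genes had a peak in any list. Chemosensory receptors had 5 of 1495 (0.334%, 0.143 to 0.781), and 1474 of these genes had no peak in any list. Keratins had 0 of 97 (interval up to 3.81%), with no peak in any list at 91. Housekeeping genes were open in most lists already, with all 3 present at 67 of 84 genes of cytosolic ribosomal proteins (2 members, at Rps10 and Rpl8, of 226 and 215 bp, 2.38%, 0.655 to 8.27) and at 66 of 76 of mitochondrial ones (0 members, up to 4.81%, an upper end below 5.47% that did not stay below the share of all genes in 3 alternatives). Translation initiation factors had 2 of 57 (3.51%, 0.968 to 11.9), at Eif4e3 and at Eif4enif1, a binding protein of eIF4E rather than an initiation factor, and the respiratory chain list had 2 of 92 (2.17%, 0.598 to 7.58), of which Cox4nb is no respiratory subunit despite its symbol. The intervals of the cytosolic ribosomal, initiation factor and respiratory lists hold 5.47%. Genes named Zfp, Zscan or Zkscan had 15 of 394 (3.81%, 2.32 to 6.19), led by Zfp831 (1043 bp) and Zfp385a (879 bp).

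**Figure D3:**
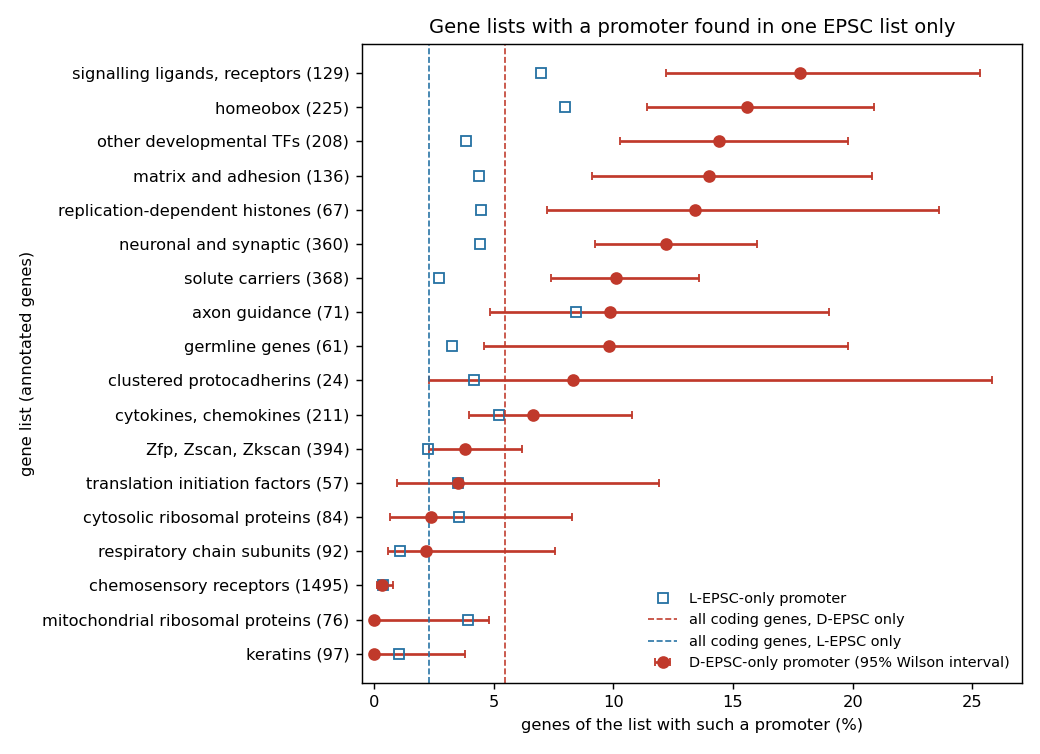
Share of the genes of each list with a D-EPSC-only promoter (red points, 95% Wilson intervals) and with an L-EPSC-only promoter (blue squares), with the shares of all coding genes as dashed lines (5.47% and 2.32%) and the number of genes of each list in brackets. Signalling, homeobox and other developmental lists are at 14.4 to 17.8%, and chemosensory receptors and keratins are at 0.334% and 0.

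The family shares stood beside the CpG content of the genes. Among genes with a CpG-dense start and no ESC or L-EPSC peak, a D-EPSC peak was found at 12 of 27 homeobox genes (44.4%, 27.6 to 62.7), 8 of 14 other developmental factors (57.1%, 32.6 to 78.6), 14 of 25 neuronal genes (56.0%, 37.1 to 73.3) and 11 of 16 solute carriers (68.8%, 44.4 to 85.8), next to 45.0% of all such genes. Each of these intervals holds 45.0%. Without a CpG-dense start the shares were 15.3% (8.24 to 26.5), 24.3% (13.4 to 40.1), 13.5% (7.88 to 22.1) and 15.0% (9.42 to 22.9) in the same order, next to 7.10% of all such genes once chemosensory receptors were left out (6.49 to 7.76). The lower end of each of these 4 intervals was above 7.10%. In the other 3 lists with a share above that of all genes, the share was 23.8% for signalling genes (5 of 21, 10.6 to 45.1), 66.7% for histones (2 of 3, 20.8 to 93.9) and 11.8% for matrix and adhesion genes (6 of 51, 5.51 to 23.4), the last with an interval that holds 7.10%. At CpG-dense starts they were 83.3% (5 of 6), 44.4% (4 of 9) and 57.1% (4 of 7), each with 45.0% in its interval.

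Of 34 genes picked mainly from the text of the study, Lefty1, Rxrg and Trim2 had a member (8.82%, 3.05 to 23.0). This interval holds the 5.47% of all coding genes, and L-EPSC-only promoters also lay at 3 of the 34. Lefty1, an inhibitor of Nodal signalling, had a peak of 347 bp 277 bp before its start, 604 bp from an L-EPSC peak and 9243 bp from an ESC peak, and no other list at its starts. Rxrg, a retinoid X receptor, had 1 of 223 bp, with its midpoint 941 bp after the start, near the limit of the rule, and an L-EPSC peak 733 bp away. Trim2, a ubiquitin ligase, had 2 members of 195 and 117 bp at separate starts, the narrower 31 bp from an L-EPSC peak. Rxrg and Trim2 each had an L-EPSC peak at a start.

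Chromosome X held a larger share of members than of all D-EPSC peaks, which include distal ones. It had 76 members (6.02%, 4.83 to 7.47) at 75 of its 927 coding genes (8.09%, 6.50 to 10.0), whereas 1.74% of D-EPSC peaks, 1.51% of L-EPSC peaks and 1.89% of ESC peaks lay on it. The comparison of this chromosome was chosen after the values of all chromosomes were seen, and its intervals are not adjusted for that choice. L-EPSC-only promoters lay on X in 10 of 513 cases (1.95%, difference 4.07 points, 2.08 to 5.77), and promoters of all 3 lists in 2.65% (difference 3.37 points, 2.14 to 4.84). The share was 3.03% (2.41 to 3.81) for promoters of both EPSC lists and 5.52% (9 of 163, 2.93 to 10.2) for those of ESCs and D-EPSCs without L-EPSCs, an interval that holds the 6.02% of members. With equal numbers of the widest peaks, an alternative also chosen then, the difference from L-EPSC-only promoters was 2.77 points (0.406 to 4.73). Per 1000 D-EPSC peaks, promoter or distal, there were 87.2 members on X and 13.8 to 36.9 on the autosomes. Fewer X genes had a D-EPSC peak at all (46.2%, against 64.4% on autosomes).

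A larger part of X genes was also free of the other lists, 546 of 927 against 7934 of 21275 on autosomes. Of 546 X genes with neither an ESC nor an L-EPSC peak, 58 had a D-EPSC peak (10.6%, 8.31 to 13.5), against 684 of 7934 autosomal genes (8.62%, 8.02 to 9.26), intervals that overlap. The mirrored L-EPSC shares were 8 of 496 (1.61%, 0.819 to 3.15) and 200 of 7450 (2.68%, 2.34 to 3.08). Of the 76 members on X, 37 were CpG-dense (48.7%, 37.8 to 59.7), against 32.4% of the others (29.8 to 35.2), and 57 belonged to genes without another list at a start, against 669 of the 1187 on autosomes (56.4%). The widest after Lonrf3 and Sox3, listed after their values were seen, were at Bcor, a Polycomb-associated corepressor (1056 bp), Tceal1 (937 bp), Smarca1, a chromatin remodeller of the ISWI family (821 bp), Fndc3c1 (743 bp) and Apln, the ligand apelin (647 bp). No value here bears on the number of X chromosomes in these cells.

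**Figure D4:**
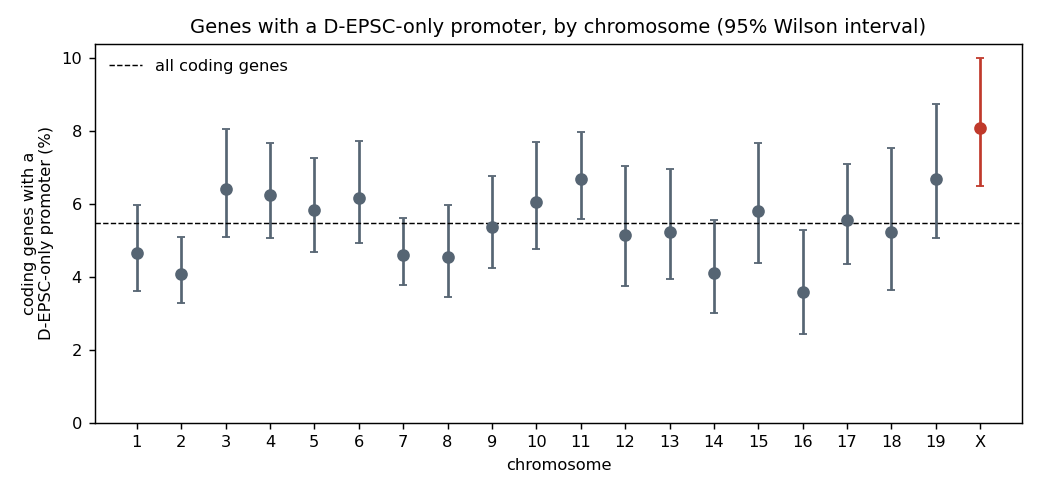
Share of coding genes of each chromosome with a D-EPSC-only promoter, with 95% Wilson intervals, and the share of all coding genes (5.47%, dashed). Chromosome X (red) is highest at 8.09% (6.50 to 10.0), and the autosomes run from 3.59% (chromosome 16) to 6.67% (chromosomes 11 and 19).

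Several motifs were scarcer at members than at promoters of all 3 lists, but not detectably scarcer than at L-EPSC-only promoters. In 400 bp around the midpoint, exact letters of NRF1, a factor of respiratory genes, were found at 3 of 1263 members (0.238%) and at 3.24% of promoters of all 3 lists (difference −3.00 points, −3.62 to −1.91, interval adjusted over the 30 motif comparisons). Those of YY1 (AAGATGGCG) were at 0.238% and 4.05% (−3.82 points, −4.50 to −2.70), and those of ETS factors (CCGGAAGT) at 1.19% and 7.56% (−6.37 points, −7.45 to −4.77). At L-EPSC-only promoters the shares were 0.585% for NRF1, 0.195% for YY1 and 2.14% for ETS, and the adjusted interval of each difference from members held 0 (−2.69 to 0.725, −2.03 to 1.02 and −4.12 to 0.947). Among CpG-dense regions alone, in members and in promoters of all 3 lists, the shares were 0.474% and 3.66% for NRF1, 0.237% and 4.62% for YY1 and 1.66% and 8.55% for ETS. Around all annotated coding starts they were 2.12%, 2.44% and 5.02%. For the same letters in reversed order, used as a control, the adjusted interval of the difference held 0 for all 3.

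Letters of CRE (TGACGTCA) were at 1.43% of members and 3.04% of promoters of all 3 lists, a difference whose adjusted interval came close to 0 (−2.54 to −0.0456). That interval held 0 in 4 alternatives, with 500 bp from a start (−2.54 to 0.510), without members within 500 bp of another list's peak (−2.57 to 0.0594), with equal numbers of the widest peaks (−2.61 to 0.460) and without narrow peaks (−2.18 to 0.759). Letters of Ronin (ACTACAATT) were at 0 of 1263 members, which allows a share of up to 0.303% by the Wilson interval. The REST elements were at 0.633% and 0.871% of members, the TCF/LEF letters at 1.11%, the POU octamer (ATGCAAAT) at 1.82%, NFY (CCAATCAG) at 3.48% and the E-box (CACGTG) at 8.16%, none with an adjusted interval of the difference excluding 0 in either comparison. Under some alternatives such an interval did exclude 0 against promoters of all 3 lists, for NFY in 4 (−2.33 points, −3.76 to −0.236, without narrow peaks) and for the TCF/LEF, E-box, Ronin and REST letters in 1 or 2 each. The retinoid receptor pair of AGGTCA spaced by 5 bases was at 0 of 1263 members, 0 of 513 L-EPSC-only promoters and 0 of 10409 promoters of all 3 lists. It was at 3 of 45939 coding starts, so letters this rare cannot tell the classes apart.

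Of the 15 motifs, 2 runs rich in G or C differed between members and L-EPSC-only promoters. The Zfp281 letters were at 11.3% of members, 5.46% of L-EPSC-only promoters (difference 5.86 points, 1.08 to 9.79) and 7.86% of promoters of all 3 lists (3.46 points, 0.809 to 6.67), with 6.65% around all coding starts. The reversed letters gave 11.0%, 5.46% and 7.30%, so the difference was about as large for a run of the same composition. The Zfp281 difference from L-EPSC-only promoters lost its call in 3 alternatives, with 500 bp from a start (5.19 points, −0.918 to 9.89), with equal numbers of the widest peaks (5.58 points, −0.482 to 10.6) and without narrow peaks (4.51 points, −0.826 to 8.78). The Zfp281 shares of members, L-EPSC-only promoters and promoters of all 3 lists were 11.8%, 6.72% and 7.74% among CpG-dense regions and 11.1%, 5.01% and 8.41% among the others. The SP/KLF letters (GGGGCGGGG), which read the same when reversed and so have no control, were at 14.3% of members, 5.26% of L-EPSC-only promoters (8.99 points, 4.07 to 13.1) and 22.3% of promoters of all 3 lists (−8.08 points, −11.2 to −4.48), with 15.7% around all coding starts. With equal numbers of the widest peaks the difference from promoters of all 3 lists was −3.73 points and its interval held 0 (−7.77 to 0.931). Among CpG-dense regions alone the SP/KLF shares were 23.5% of members (19.7 to 27.7), 10.4% of L-EPSC-only promoters (6.33 to 16.8) and 24.3% of promoters of all 3 lists (23.4 to 25.3), and among the other regions 9.63%, 3.43% and 12.9%. The AP-1 letters (TGAGTCA) were at 5.78% of members and 3.19% of promoters of all 3 lists (2.59 points, 0.752 to 5.07), next to 4.83% and 3.09% for the reversed letters, whose difference also excluded 0. With equal numbers of the widest peaks the AP-1 difference was 0.997 points and its interval held 0 (−0.757 to 3.70). AP-1 letters were at 2.37% of members (1.29 to 4.31) and 2.59% of promoters of all 3 lists (2.27 to 2.95) among CpG-dense regions, and at 63 of 841 (5.90 to 9.47%) and 110 of 1832 (5.01 to 7.19%) among the others, with overlapping intervals in both. At L-EPSC-only promoters they were at 5.85% in all. Within the bounds of the region in place of 400 bp, the Zfp281 and AP-1 differences from promoters of all 3 lists, which are wider regions, turned negative. A match of letters is not evidence that a factor was bound.

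**Figure D5:**
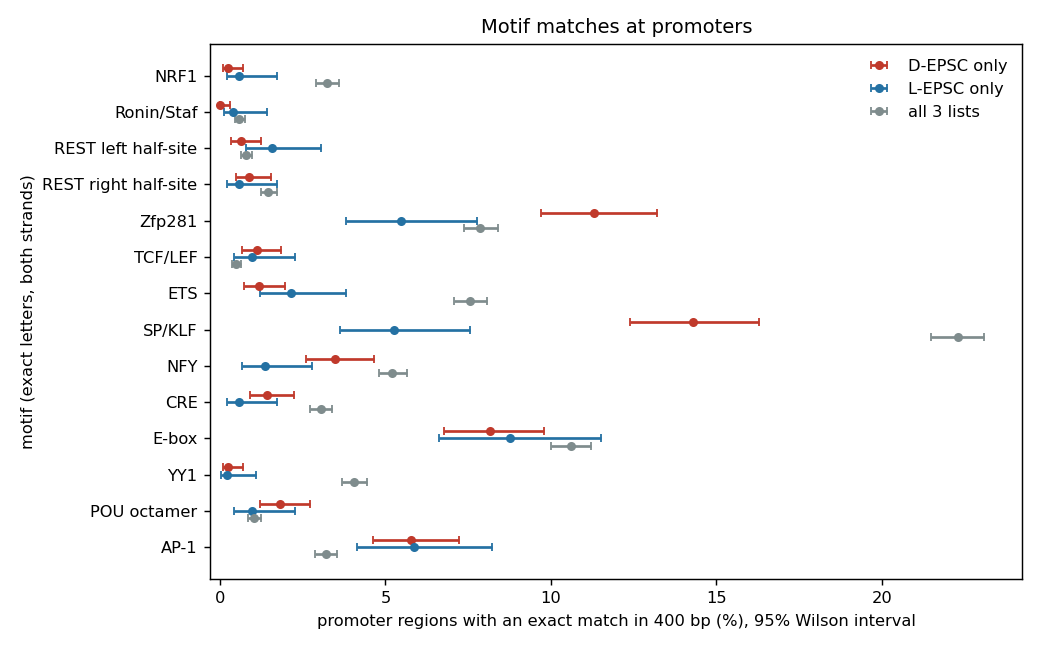
Share of promoter regions with an exact match to each motif in 400 bp around the midpoint, with 95% Wilson intervals, for D-EPSC-only (red), L-EPSC-only (blue) and promoters of all 3 lists (grey). NRF1, ETS and YY1 letters are at 0.238 to 1.19% of D-EPSC-only promoters and at 3.24 to 7.56% of those of all 3 lists.

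Away from starts, 246 members (19.5%, 17.4 to 21.8) had a D-EPSC-only region more than 1 kb from any coding start within 10 kb. The share was 14.3% (13.6 to 15.0) at promoters of all 3 lists and 20.7% (17.4 to 24.4) at L-EPSC-only promoters, an interval that overlaps that of members. L-EPSC-only promoters had a distal region of their own class within 10 kb in 13.3% of cases (10.6 to 16.5).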

How the data were processed

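The authors trimmed reads with Trim Galore 0.6.3, aligned them to mm9 with Bowtie2 2.3.5, filtered for proper pairs and mapping quality (SAMtools 1.10) and ran the MACS peak caller. How technical replicates were combined, duplicate removal, the Tn5 shift and blacklist filters are not given in the sources used here. The deposited files hold, per state, peak positions with no score, count or p-value, so sequencing depth is unknown, and longer lists raise the number of regions found in a single list. All peak ends lay within the NCBIM37 chromosomes. Starts came from GENCODE M1. Sequence held here is not masked for repeats.

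Peaks were merged, classed and compared in Python 3.11.15 (pandas 2.3.3, scipy 1.17.1), checked on simulated lists against bedtools 2.31.1. Shares have 95% Wilson intervals, differences Newcombe intervals and medians order-statistic intervals; a difference was called where its interval excluded 0. Motif intervals were Bonferroni-adjusted over 30 comparisons.

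Members, gene lists and tests were chosen with earlier results of these data known. Genes were named by rule: the 12 widest members, up to 4 of each list by width, 6 genes with several members by summed width, the 5 farthest from other lists, those of a list drawn mainly from the study's text, the widest with each motif, and 3 on each side of the 1 kb limit. Genes outside the rule are examples picked from the lists by role, after their values were seen. Some items that the rule selects are not reported here.

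Alternatives were other distances to the start, isolated members, equal list lengths, no narrow peaks, a larger overlap, the region as sequence window, and 1 region per gene.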

Additional observations from a re-analysis of the deposited data

How the results depend on the processing

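No paired analysis was possible because each state has a single peak list that combines its replicates, and no replicate could be left out for the same reason. Under the alternatives run, every CpG-dense difference kept its direction, and all but 1 kept an interval that excluded 0. The exception was the difference from L-EPSC-only promoters with equal numbers of the widest peaks (5.92 points). The number of gene lists whose interval lay above the share of all genes stayed between 7 and 8.

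With 500 bp from a start the median width was 276 bp, the CpG-dense share 37.1%, and 1 motif in place of 2 (SP/KLF, without Zfp281) differed from L-EPSC-only promoters. With 2.5 kb there were 1953 members at 1865 genes, the median width was 243 bp, the CpG-dense share 26.7%, and 11 motifs in place of 7 differed from promoters of all 3 lists. Leaving out members within 500 bp of another list's peak left 141 with such a peak in the start window. Equal numbers of the widest peaks (28965 each) gave a median width of 480 bp, a CpG-dense share of 49.8%, 90 members with another list in the window and again SP/KLF alone against L-EPSC-only promoters. Among genes with no peak of the other 2 lists, they also moved the shares with a D-EPSC peak to 38.7% (CpG-dense) and 4.08% (others). Those with an L-EPSC peak moved to 17.8% and 1.74%. Without peaks under 169 bp the median width was 331 bp, the CpG-dense share 39.8%, and SP/KLF was again the 1 motif that differed from L-EPSC-only promoters. Taking the region as the sequence window made 12 motifs differ from promoters of all 3 lists and reversed the Zfp281 (−7.22 points) and AP-1 (−3.36 points) differences. Promoters of all 3 lists are wider regions, and the part of width in this was not tested.

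The number of members was 947 with 500 bp, 1177 without narrow peaks, 891 with equal lists and 1402 when sharing needed 100 bp of overlap. The 48 motif comparisons and lists gave 300 values under the alternatives, of which 271 kept direction and call, 15 gained a call, 12 lost it and 2 reversed. The 12 losses belonged to 5 of the 48, which were Zfp281 against L-EPSC-only promoters, CRE, SP/KLF and AP-1 against promoters of all 3 lists, and the mitochondrial ribosomal list. The 15 gains belonged to 8, which were NFY (4 alternatives), TCF/LEF, E-box and Ronin (2 each) and both REST elements (1 each) against promoters of all 3 lists, and the axon guidance (2) and germline (1) lists. With no scores, depth or replicates, the peak lists do not give the signal of the other states at a member. The study compared normalized read counts over its peaks between the states, and its calls were not set against the members here. The alternatives on chromosome X and on genes with no peak of the other lists were chosen after seeing the data.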
